A study of Mus musculus with 27 samples.

Results

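The regions described here are the open chromatin regions that carry the name of the KO macrophages in a merged ATAC-seq list from mouse tumour-associated macrophages. Every region of that list is 501 bp wide and has a name that gives a genotype, WT or KO, and a running number. Of the 30189 regions, 12713 were named for KO. The members were chosen by that name, and 5 regions in a short window of chr2 were left out by the rule, which leaves 12708 KO-named regions beside 17476 WT-named ones, or 42.1% of 30184. The name and the score of a region come from the peak calls themselves, so names, scores and spacing are given as descriptions with no test.

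The macrophages came from MC38 tumours, which grow from a mouse colon adenocarcinoma cell line. WT mice carried a floxed Ogt gene, and KO mice carried floxed Ogt together with Lyz2-cre, so that the floxed allele is shared and Lyz2-cre is what sets KO apart. ATAC-seq had 3 libraries per genotype but 1 merged list. EGR2, a transcription factor, was mapped by CUT&Tag with 3 libraries and 1 list per genotype. RNA-seq had 3 libraries per genotype, each with its own counts. Age, sex and the day of collection are not in the labels used here, nor do they say which animals the libraries came from. Lyz2-cre is driven by the lysozyme M gene, which is active in macrophages, monocytes and neutrophils, so deletion is not limited to tumour macrophages.

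ATAC-seq uses a transposase that inserts adapters where DNA is free of nucleosomes. Such open sites are the promoters of active genes and the distal enhancers where transcription factors bind, and in macrophages many enhancers are opened by PU.1, C/EBP and AP-1 factors. OGT, the enzyme encoded by Ogt, adds O-GlcNAc to serines and threonines of many nuclear and cytoplasmic proteins, transcription factors among them. EGR2 is a zinc finger factor that takes part in macrophage activation.

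The sequences below are promoters of genes that return later with their RNA values, each lying wholly or partly under a KO-named region. Each gives the 250 bases before the start of a gene in RefSeq, read from 5′ to 3′ on the gene's strand, on build GRCm38.p6, the same coordinates as mm10. Capitals mark matches to the motifs named after the sequences. The Abca1 promoter is at chr4:53159896-53160145 on the minus strand, that of Klf4 at chr4:55532476-55532725 on the minus strand, and that of Glcci1 at chr6:8509350-8509599 on the plus strand. The Hilpda promoter is at chr6:29272376-29272625, that of Casp1 at chr9:5298267-5298516 and that of Glipr2 at chr4:43957452-43957701, all on the plus strand. For Klf4, 99 of the 250 bases were inside a KO-named region, and for the other 5 genes all 250 were.
Abca1: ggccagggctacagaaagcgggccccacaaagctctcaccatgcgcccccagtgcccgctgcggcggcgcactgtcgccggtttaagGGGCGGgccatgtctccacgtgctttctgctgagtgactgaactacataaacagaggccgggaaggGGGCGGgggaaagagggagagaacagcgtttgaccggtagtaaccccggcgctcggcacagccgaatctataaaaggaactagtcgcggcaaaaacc
Klf4: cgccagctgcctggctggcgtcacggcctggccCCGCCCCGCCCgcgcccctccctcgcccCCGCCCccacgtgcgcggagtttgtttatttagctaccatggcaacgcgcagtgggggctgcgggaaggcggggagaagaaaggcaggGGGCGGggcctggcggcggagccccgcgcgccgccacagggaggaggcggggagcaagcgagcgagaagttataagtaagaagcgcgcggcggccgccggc
Glcci1: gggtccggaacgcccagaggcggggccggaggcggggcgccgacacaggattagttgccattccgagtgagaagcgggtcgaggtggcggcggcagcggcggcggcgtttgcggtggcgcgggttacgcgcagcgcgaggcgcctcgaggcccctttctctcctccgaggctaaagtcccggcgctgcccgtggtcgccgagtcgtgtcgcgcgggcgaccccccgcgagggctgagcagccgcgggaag
Hilpda: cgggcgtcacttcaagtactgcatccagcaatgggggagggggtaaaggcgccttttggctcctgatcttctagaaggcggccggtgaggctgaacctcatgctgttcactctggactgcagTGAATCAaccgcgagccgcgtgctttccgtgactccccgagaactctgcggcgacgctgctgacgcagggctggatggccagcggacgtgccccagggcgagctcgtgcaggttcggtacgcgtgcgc
Casp1: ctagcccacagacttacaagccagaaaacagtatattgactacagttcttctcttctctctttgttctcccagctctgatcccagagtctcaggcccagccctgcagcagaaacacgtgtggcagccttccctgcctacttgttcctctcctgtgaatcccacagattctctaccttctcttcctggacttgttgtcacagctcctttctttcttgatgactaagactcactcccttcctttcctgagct
Glipr2: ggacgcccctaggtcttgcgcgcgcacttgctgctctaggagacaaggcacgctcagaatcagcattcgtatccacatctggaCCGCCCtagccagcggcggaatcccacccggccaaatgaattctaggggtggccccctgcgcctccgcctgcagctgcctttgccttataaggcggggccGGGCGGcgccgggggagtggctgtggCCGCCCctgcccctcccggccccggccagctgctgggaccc

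The motifs were searched on both strands, as exact letters. They were the SP/KLF box (GGGCGG), the EGR site (GCGTGGGCG), the ETS site (CCGGAAG), the PU.1 site (GAGGAAG), the AP-1 site (TGANTCA), the C/EBP site (TTGCNNAA) and the cyclic AMP response element (TGACGTCA). The EGR and SP/KLF letters can overlap, as can the ETS and PU.1 letters. Abca1 held 2 SP/KLF boxes, Klf4 held 4 and Glipr2 held 3, whereas Hilpda held 1 AP-1 site and Glcci1 and Casp1 held none of these motifs. The Casp1 promoter had a GC content of 49.2% and 1 CpG, and the Glcci1 promoter had 74.4% and 40 CpGs. A promoter under a KO-named region could thus be CpG-poor as well as CpG-rich.

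The build was examined first, because gene names depend on it. The submitters' processing notes name mm10. With the mm10 gene starts of the RNA count files, 6.69% of all KO-named regions had their centre within 1 kb of a gene start, and 6.38% of WT-named ones. For each 2 Mb window of the genome, the gene starts were moved in steps of 500 bp over 1.5 Mb to either side, and the shift that put most starts within 500 bp of a region centre was kept. In the 844 windows outside the stretches named next, 3.06% of 12021 starts of tested genes lay on a region without a shift, and 68.5% at the best shift of each window. The best of many shifts always catches some starts by coincidence. In the 37 windows that touch the stretches, 68.8% of 352 starts lay on a region without a shift and 29.5% at the best other shift. The stretches were chosen because no shift was needed there, so these shares are not a neutral measure of coincidence. In 613 of the 844 windows the best shift put at least 5 starts on regions and more than no shift did. The best shifts of these 613 ran from -1217 to 754 kb, and 478 of them had a neighbouring window among the 613 whose best shift was within 1 kb of their own. The coordinates of the list are therefore not those of mm10 over most of the genome. Offsets that stay constant over long stretches are how a later assembly such as GRCm39, the successor of mm10, would differ. No GRCm39 table was used here, so the build of the list is given only as not mm10.

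In 5 stretches the mm10 gene starts lay on the regions without a shift, and the stretches were chosen by that. A window counted where at least 3 starts lay on regions without a shift and no other shift put more there. A stretch needed at least 2 such windows, with none between them where another shift put more starts, at least 5, on regions. It was cut to its first and last start on a region. The 5 stretches were chr4:3574853-59805840, chr6:4086972-31102846, chr9:4309494-7873186, chr15:10470516-37961318 and chr18:3337748-10725548, together 121.7 Mb. There 269 of 380 starts of tested genes (70.8%) were within 500 bp of a region centre, a share raised by the choice. The stretches hold 356 KO-named regions, or 2.8% of the members, and 520 WT-named ones. Genes are named only for these 356 regions, and positions elsewhere are printed as the list gives them. The KO-named regions nearest Ogt, Egr2, Lyz2, Cebpb, Spi1, Csf1r and Cd8a are not named, because none of these genes lies in a stretch.

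**Figure D1:**
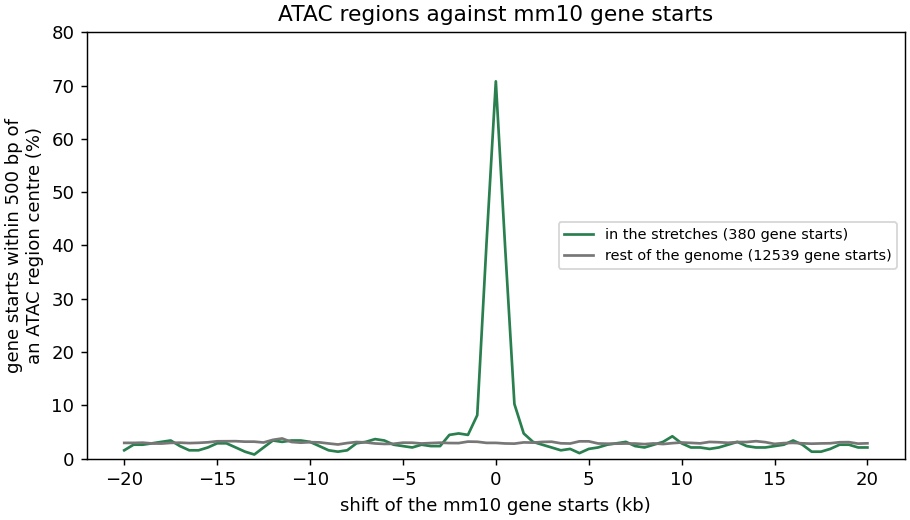
The share of gene starts within 500 bp of the centre of any ATAC region (vertical axis, percent) after moving the mm10 starts by a fixed distance (horizontal axis, kb), in the 5 stretches (380 starts) and in the rest of the genome (12539 starts). In the stretches, which were chosen for starts that lie on regions without a shift, the share peaks at 70.8% without a shift. Elsewhere it is 2.97% without a shift and does not pass 3.8% at any shift within 20 kb.

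The name of a region does not by itself show that the other genotype lacked a call there. Running numbers rose along the genome and none was repeated. The highest KO number was 27033, so 14320 KO numbers (53.0%) were absent from the list, and 10199 of 27675 WT numbers (36.9%) were absent. More than 1 in 2 numbered KO calls are thus not in the merged list under their own name. Whether they were merged into other regions or removed by a filter cannot be told from the list. The list does not hold the score of the other genotype, and the rule of merging is not given in the sources used. For 878 KO-named regions (6.90%, exact 95% interval 6.47 to 7.36), no WT number was missing between the flanking WT-named regions, so no numbered WT call is missing there. Their median score was 6.43, against 16.19 for the other KO-named regions. In the reverse case, 559 WT-named regions (3.20%) had no missing KO number between the flanking KO-named ones.

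The 5 regions left out on chr2 began between 98492747 and 98497161 and were all KO-named. Their scores were 15961, 202, 6970, 13268 and 264063. The nearest KO-named regions outside that window, at chr2:94268113-94268613 and chr2:101488333-101488833, scored 18.4 and 78.8.

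Most KO-named regions had modest scores, and a few had extreme ones. The score is the authors' own value per region, and its scale is not stated in any label or header. The median was 14.96 for KO-named regions (quartiles 8.83 and 28.05) and 15.64 for WT-named regions (9.07 and 29.43). At the top, the 99th percentile was 136.6 against 101.7, and the highest score 31701 against 2834. Of 86 regions above 200, 75 (87.2%) were KO-named. These 75 regions held 25.8% of the score sum of the KO-named regions, and the 11 WT-named ones held 1.62% of theirs. The 5 lowest members shared a score of 4.118, at chr17:34215253-34215753, chr1:171239320-171239820, chr15:86054587-86055087, chr17:47167357-47167857 and chr3:136377475-136377975.

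The KO-named share changed little with the score. In 10 classes of the list by score, it ran from 38.3% to 43.0% in the upper 9. In the lowest class, with scores from 4.12 to 6.43, it was 48.0% (95% interval 46.2 to 49.7). Intervals here cover counting error only and treat regions as independent, which neighbours are not.

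**Figure D2:**
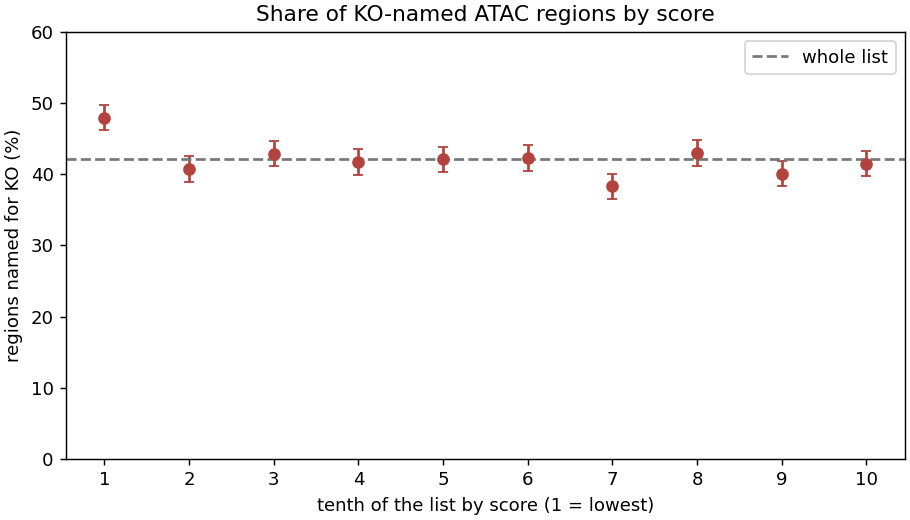
The KO-named share of the regions (vertical axis, percent) in 10 classes of the merged list ordered by score (horizontal axis, 1 the lowest). Bars are exact 95% binomial intervals and the dashed line is the share of the whole list, 42.1%; the lowest class stands at 48.0% and class 7 at 38.3%.

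The highest scoring KO-named region was chr12:3159735-3160235, with a score of 31700. It overlapped an EGR2 peak in WT and one in KO, both among the 6 highest scores of their lists. The next were chr9:35216464-35216964 (16290), which overlapped the WT EGR2 peak ranked 7 and no KO peak, and chr6:103625883-103626383 (11090), which overlapped the WT peak ranked 5 and the KO peak ranked 4. The region chr14:3051597-3052097 scored 1810 and overlapped the WT peak ranked 9 and the KO peak ranked 10. The other 6 of the highest 10 scored from 1073 to 1400 and overlapped no EGR2 peak: 2 lay near chr17:40153875-40155418 and 4 between 3001887 and 3023832 on chr9. Sites of extreme ATAC score were thus in part also sites of extreme EGR2 score in both genotypes. Whether repeated sequence takes part in these scores was not tested.

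Some of the regions above 200 lay together. The 86 fell into 42 places of 1 Mb, of which 32 held 1 such region and 7 held 4 or more (47 regions in all). In the window from 3 to 4 Mb of chr9, 12 of 15 such regions were KO-named, with scores up to 1232. At 124 Mb of chr9 it was 6 of 7, at 40 Mb of chr17 it was 6 of 6 (762 to 1400), at 47 Mb of chr6 it was 5 of 5 and at 3 Mb of chr14 it was 4 of 4. At 24 Mb of chr1 it was 4 of 6. An exception was 168 Mb of chrX, where 1 of 4 was KO-named.

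KO-named regions were spread over all chromosomes analysed, from 36.4% of the regions on X (170 of 467, interval 32.0 to 41.0) to 49.2% on 17 (818 of 1663, 46.8 to 51.6). Chromosome 11 was next to 17 with 45.6% (43.6 to 47.6). On the remaining 17 autosomes the share lay between 39.1% and 44.0%.

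Members lay closer to other regions than WT-named ones did. The median distance from centre to centre to the nearest region of either name was 3.23 kb for KO-named and 5.09 kb for WT-named regions. A neighbour within 1 kb was found for 2758 KO-named regions (21.7%) and for 17.9% of WT-named regions, and 7.30% against 9.60% had none within 50 kb. Between successive KO-named regions the median distance was 29.8 kb, and 27.4 kb between WT-named ones.

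Close neighbours of KO-named regions were often KO-named themselves. The nearest region was KO-named for 48.7% of the KO-named regions and for 38.6% of the WT-named ones, where the list as a whole holds 42.1%. The share depended on the distance. For KO-named regions it was 56.9% (interval 55.1 to 58.8) up to 1 kb, 52.4% from 1 to 2 kb, 51.0% from 2 to 5 kb and 44.5% from 5 to 10 kb. Beyond 10 kb it was between 39.1% and 41.8%. For WT-named regions it ran from 36.5% to 43.2% with no such order. The names of KO regions thus ran together over a few kb.

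**Figure D3:**
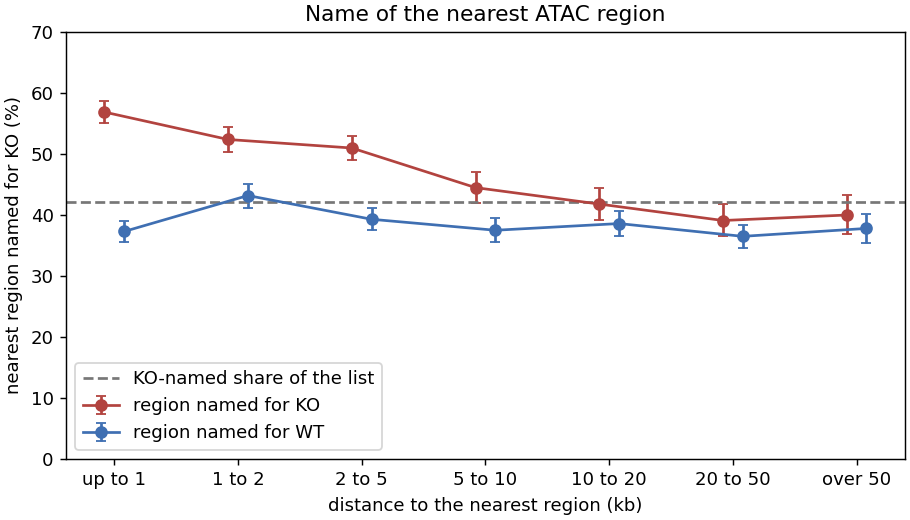
The share of regions whose nearest region is KO-named (vertical axis, percent) by the distance to it (horizontal axis, kb), for KO-named and WT-named regions, with exact 95% binomial intervals. The KO-named regions fall from 56.9% up to 1 kb to 39.1% between 20 and 50 kb, near the dashed line at 42.1%, and the WT-named regions stay between 36.5% and 43.2%.

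Clusters were built by joining KO-named regions whose gap was at most 12500 bp, with at least 3 regions in a cluster. This gave 944 clusters with 4087 regions, or 32.2% of the members, and 28.9% of WT-named regions fell in clusters built from WT-named regions. Of the 944, 474 had 3 members and 36 had 10 or more, and the median length was 12520 bp. No WT-named region lay inside 483 of them (51.2%). With a gap of 5 kb, 18.9% of KO-named and 12.9% of WT-named regions were in clusters, and with 25 kb 46.5% and 48.3%. KO-named regions thus had the larger share in clusters at the 2 shorter gaps and the smaller share at 25 kb. With a fixed gap this share also depends on the number of regions, 12708 KO-named and 17476 WT-named, and it was not adjusted for that.

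The largest clusters had 28 members each and lay on chr17. The one at chr17:3057166-3086837 held no WT-named region, with a median score of 24.4 and 2 EGR2 peaks of the WT list. The one at chr17:34480405-34535931 held 3 WT-named regions, with a median score of 11.3, 2 WT EGR2 peaks and 5 KO EGR2 peaks. At chr18:60936613-60954105, 21 KO-named regions and 1 WT-named region lay within 17.5 kb. At chrX:168769270-168803959, 18 KO-named regions were mixed with 22 WT-named ones. At chr4:3050202-3091064 there were 17 KO-named regions and 1 WT-named region. The cluster at chr9:3001887-3034084 had 15 members with a median score of 671, the highest of the 10 largest clusters; the other 9 had medians from 11.3 to 41.7. Genes of these 6 places are not named here, since they lie outside the stretches.

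**Figure D4:**
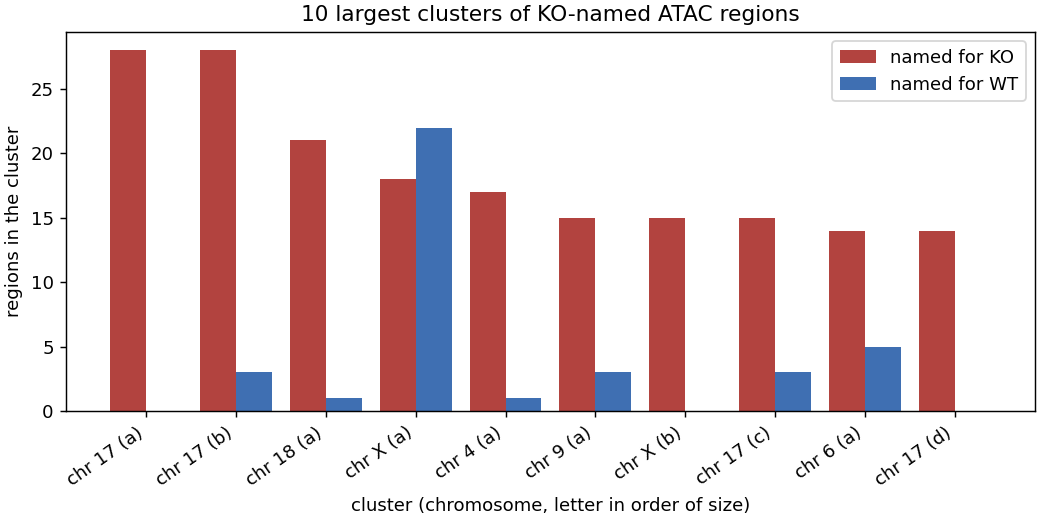
The number of KO-named and WT-named regions (vertical axis) inside each of the 10 largest clusters of KO-named regions, labelled by chromosome and a letter in order of size. From 14 to 28 KO-named regions stand beside 0 to 5 WT-named ones, except in the larger cluster on X with 18 and 22.

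Several of these clusters lay at the beginning of a chromosome's coordinates. The first region of the list starts at 3000264, and mouse chromosomes begin with the centromere, whose repeats are not part of the assembled sequence. Between 3 and 4 Mb, 249 of 407 regions (61.2%, interval 56.3 to 65.9) were KO-named, against 43.3% of 275 between 4 and 5 Mb and 44.6% of 294 between 5 and 6 Mb. These windows were chosen after the largest clusters had been seen. The share between 3 and 4 Mb was 23 of 24 on chr3, and 38 KO-named beside 15 WT-named regions on chr11, 32 beside 12 on chr4 and on chr17, and 16 beside 5 on chr9. On chr12 it was the other way round, with 8 KO-named and 24 WT-named regions. KO-named regions were the majority on 10 of 18 chromosomes there.

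Windows of 1 Mb with at least 20 regions gave the same picture on a larger scale. In 585 such windows the median KO-named share was 42.9% (lower quartile 36.4%). It was 60% or more in 32 windows and 25% or less in 36. The highest share was 95.8% (23 of 24) at chr3:3000001-4000000, followed by 81.5% (22 of 27) at chr12:17000001-18000000 and 76.2% (16 of 21) at chr9:3000001-4000000. A window in the middle of a chromosome with many regions was chr17:35000001-36000000, where 63 of 85 (74.1%, interval 63.5 to 83.0) were KO-named. The lowest share, 14.8% (4 of 27), was at chr13:67000001-68000000.

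The EGR2 lists were drawn on the same coordinates as the ATAC list. Of 5405 WT EGR2 peaks, 26.8% overlapped an ATAC region as deposited and at most 7.03% after a move by 2, 5 or 20 kb, and of 4992 KO peaks 11.6% and at most 5.41%. An EGR2 peak of either genotype overlapped 950 KO-named regions by at least 1 bp (7.48%, interval 7.02 to 7.95) and 5.79% of WT-named regions (5.45 to 6.15). By list, 5.74% of KO-named regions met a WT EGR2 peak and 2.71% a KO EGR2 peak, where WT-named regions gave 4.67% and 1.52%. Both lists met in 125 KO-named regions (0.98%). Seen from the EGR2 side, 47.4% of the 1448 accessible WT peaks and 58.2% of the 577 accessible KO peaks (interval 54.1 to 62.3) lay on a KO-named region. Of the ATAC list as a whole 42.1% was KO-named. There is 1 list per genotype, so this has no replicate check.

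The overlap with EGR2 grew with the ATAC score. In 4 equal classes of the list by score, from low to high, it was 4.24%, 4.11%, 6.51% and 15.5% of the KO-named regions. WT-named regions gave 2.21%, 2.93%, 4.93% and 12.8%. Without regions scoring above 200, an alternative chosen after seeing the data, the values were 7.30% for KO-named and 5.79% for WT-named regions.

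In the 5 stretches the KO-named regions can be placed against genes. Of 356, 135 (37.9%, interval 32.9 to 43.2) had their centre within 1 kb of a gene start, and 35.2% of 520 WT-named regions did. Those within 1 kb had a median score of 24.98, and the rest 13.14. With tested genes only, 36.0% lay at a start, 32.3% inside a gene and away from its start, and 29.8% in neither place. The median distance to a start was 3.93 kb. Among the 18 KO-named regions of the stretches where no numbered WT call is missing, 3 lay at a start.

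Promoters under KO-named regions had the base composition of promoters under WT-named regions. In 51 promoters of 48 genes, at least 200 of the 250 bases before the start were inside KO-named regions, with a median GC content of 62.0% and 20 CpGs. The 60 promoters under WT-named regions had 63.4% and 19.5, and the 616 promoters of the stretches without any base in a region had 47.2% and 3. An SP/KLF box was present in 72.5% of the 51, 71.7% of the 60, 19.8% of the 616 and 32.7% of all 32851 promoters of the RefSeq table. The PU.1 letters were in 3.9% of the 51, 13.3% of the 60 and 10.6% of all, and the C/EBP letters in 3.9%, 11.7% and 9.6%. AP-1 letters were in 9.8%, 5.0% and 6.7%, ETS letters in 13.7%, 11.7% and 6.9%, and cyclic AMP response elements in 7.8%, 5.0% and 1.5%. In the 616 promoters of the stretches without a base in a region, AP-1 letters were in 9.9%, near the 9.8% of the 51. There PU.1 letters were in 10.1%, C/EBP letters in 14.1%, ETS letters in 2.9% and cyclic AMP response elements in 0.2%. The full EGR site was in 0 of the 51, in 0 of the 60, in 0.3% of the 616 and in 0.5% of all. With 51 promoters these shares differ by few genes, and a match is only a match of letters.

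RNA is a measurement that the choice of the members by name did not use. The stretches, however, were found from the starts of tested genes, those that passed the filter on RNA counts. The 6 libraries held from 7032540 to 32406170 counts, the deepest being a KO library. Ogt was at 60.95, 58.67 and 49.18 CPM (counts scaled by TMM-adjusted library size) in the WT libraries and at 31.96, 39.13 and 33.04 in the KO libraries, a fall of 0.72 on the log2 scale. Lyz2, the gene that carries the cre, fell from 3882 ± 53.8 to 84.0 ± 1.51 CPM (SD, n = 3 per genotype). All 14 macrophage markers were detected, with a summed level of 18060 to 18400 CPM in WT and 12780 to 13040 in KO. Lyz2 is 1 of the 14, so its own fall is part of the fall of this sum. Of the 14, 5 were higher and 8 lower in KO, with a median log2 fold change of -0.09. Markers are counted as higher or lower by edgeR calls at an adjusted p below 0.05. Among all tested genes 18.8% were higher and 18.9% lower. Monocyte markers were higher in 7 of 12 and lower in 2 (2390 to 2444 CPM in WT, 2274 to 2291 in KO), and dendritic cell markers higher in 2 of 11 and lower in 6 (760.7 to 799.0 and 538.5 to 554.1). T and NK cell markers summed to 429.6 to 441.9 CPM in WT and 739.6 to 746.4 in KO, and 19 of 25 tested were higher and 1 lower in KO. B cell markers summed to 62.4 to 69.5 CPM in WT and 123.4 to 129.5 in KO (3 of 7 tested higher, 1 lower). Neutrophil markers summed to 144.3 to 159.4 and 110.0 to 119.6 (1 of 7 higher, 4 lower, Ngp at 0 in every library). Fibroblast and endothelial markers summed to 78.7 to 87.2 CPM in WT and 103.0 to 116.9 in KO (3 of 8 tested higher, 0 lower). Epithelial or tumour cell markers summed to 28.0 to 30.5 and 22.3 to 24.8 (1 of 4 tested higher, 2 lower). The part of these cell types in the results below was not tested. In bulk RNA, fewer cells of a type and less RNA per cell cannot be told apart, and a p-value here speaks of the spread among these 6 libraries alone, which may be technical.

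Genes with a KO-named region at the start were called about as often as other genes, and in both directions. Over all 12939 tested genes, edgeR called 37.7% at a Benjamini-Hochberg adjusted p below 0.05, 18.8% higher and 18.9% lower in KO. Of 127 tested genes with a KO-named region within 1 kb of the start, 23 (18.1%) were higher and 28 (22.0%) lower, with a median log2 fold change of -0.001, the same as over all genes. Of 150 genes with only WT-named regions there, 25 were higher and 34 lower, with a median of -0.025. Of 103 tested genes of the stretches without a region, 15 were higher and 16 lower. The shares called, 40.2%, 39.3% and 30.1%, compare with 37.7% over all genes, and no difference between the groups was tested. The median RNA level was 4.83 log2 CPM in the genes with a KO-named region, 4.59 in those with only WT-named regions, 1.85 in those without a region and 4.32 over all genes.

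The 127 genes fell into 2 unequal groups. In 111 the start had KO-named regions alone, with 22 higher and 19 lower in KO and a median of 0.02. In 16 the start had both KO-named and WT-named regions, with 1 higher and 9 lower and a median of -0.23. These 16 genes also had the higher median RNA level, 5.89 against 4.66 log2 CPM. Libraries of the genotypes did not overlap for 52 of the 127 (40.9%), against 46.5% of all tested genes.

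Klf4, a zinc finger factor of monocyte and macrophage differentiation, had a KO-named region centred at -411 bp from its start, with a score of 47.7, and 3 WT-named regions within 10 kb. Its RNA stood at 1677, 1719 and 1669 CPM in WT and 1026, 1053 and 1022 in KO. All KO libraries were below all WT libraries (log2 fold change -0.71, SE 0.0212, edgeR adjusted p = 3.647e-40). Basp1, which encodes a membrane-attached signalling protein, had a KO-named region centred at -909 bp from its start and 2 WT-named regions within 1 kb. It was at 403.3, 389.7 and 403.1 CPM in WT and at 254.7, 271.3 and 242.5 in KO, again without overlap (log2 fold change -0.64, edgeR adjusted p = 1.072e-25). Hilpda, whose product limits lipid droplet breakdown under hypoxia, had a KO-named region with a score of 50.8 over its start. It also had 2 WT-named regions within 10 kb. Its levels of 209.0, 228.9 and 211.1 CPM in WT lay above the 122.7, 125.0 and 132.7 of KO (log2 fold change -0.77, SE 0.0474, edgeR adjusted p = 4.816e-23).

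Abca1 encodes the pump that passes cholesterol from macrophages to lipoproteins. It had KO-named regions with scores of 31.5 and 18.7 within 1 kb of its start and 1 of 23.6 at 4245 bp inside the gene, and no WT-named region within 10 kb. The RNA was at 69.07, 77.44 and 68.94 CPM in WT and 62.19, 49.91 and 64.33 in KO. The ranges did not overlap, but the lowest KO library lay apart from the other 2 (log2 fold change -0.28, SE 0.0810, edgeR adjusted p = 0.004203). Without that library the adjusted p was 0.0949, so the call rests on it.

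Glcci1, a gene first described by its induction by glucocorticoids, had KO-named regions with scores of 62.8 and 6.4 within 1 kb of the start and no WT-named region within 50 kb. It had the largest fall among called genes with a KO-named region at the start, from 7.12, 8.47 and 6.44 CPM in WT to 1.56, 2.55 and 0.399 in KO (log2 fold change -2.28, SE 0.354, edgeR adjusted p = 1.717e-07). Its level was low in all libraries.

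Other falls in this group were those of Tes, Fam214b, Glipr2 and Mob3b. Tes encodes a focal adhesion protein and went from 110.4 ± 7.25 to 68.7 ± 1.24 CPM (SD, n = 3). Fam214b went from 89.3 ± 2.75 to 57.7 ± 3.06 CPM, and Glipr2, which had 2 KO-named regions within 1 kb, from 78.9 ± 7.79 to 56.0 ± 2.52. Mob3b, with 1 KO-named and 2 WT-named regions within 1 kb, went from 11.4 ± 0.493 to 6.53 ± 1.52. In all 4 the KO libraries were below the WT libraries, with edgeR adjusted p from 4.11e-14 (Tes) to 0.001411 (Mob3b).

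Casp1 encodes the inflammasome protease that processes interleukin 1 beta. Its KO-named region, with a score of 12.3, was centred at -3 bp from the start. The RNA was at 46.04, 44.59 and 47.43 CPM in WT and at 70.56, 65.44 and 74.15 in KO, with all KO libraries above all WT libraries (log2 fold change 0.61, SE 0.0815, edgeR adjusted p = 3.742e-09). Mdn1 encodes a large ATPase of ribosome assembly and had a KO-named region with a score of 20.3 centred 86 bp after its start. It stood at 57.89, 51.63 and 46.69 CPM in WT and 84.25, 90.74 and 84.45 in KO (log2 fold change 0.72, SE 0.0768, edgeR adjusted p = 2.66e-12). Neither gene had a WT-named region within 10 kb.

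The other named rises were at low levels. Matn2, an extracellular matrix protein gene, was at 5.14, 1.83 and 4.54 CPM in WT and 9.33, 9.34 and 7.10 in KO (edgeR adjusted p = 0.0001723). Pop1 and Rida share 1 KO-named region within 1 kb of both starts, with a score of 24.0. Its centre was at 280 bp from the start of Pop1 and at -329 bp from that of Rida. Pop1, a subunit of the RNase P and MRP complexes, was at 6.38, 5.997 and 5.42 CPM in WT and 8.16, 10.95 and 14.77 in KO (edgeR adjusted p = 0.0004982). Rida, a deaminase gene, was at 1.82, 1.83 and 2.64 CPM in WT and 3.42, 4.07 and 4.95 in KO. Fbxl4 and Coq3 had mean levels of 3.65 and 3.37 CPM in WT and of 6.50 and 5.46 in KO.

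Several of these low calls were lost when 1 library was left out, while the fold changes stayed of similar size. The edgeR adjusted p of Rida was 0.0826 without WT replicate 1, 0.0504 without WT replicate 2 and 0.101 without KO replicate 3, with log2 fold changes from 0.85 to 0.92. That of Fbxl4 was 0.0538 without WT replicate 3 and 0.0563 without KO replicate 1. Coq3 lost its call whichever of the 6 libraries was left out (log2 fold change 0.62 to 0.75, adjusted p from 0.0504 to 0.174). It also lost it with all libraries under the DESeq2 Wald test (0.0574), without the filter on low counts (0.0584) and with a replicate block (0.0505).

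**Figure D5:**
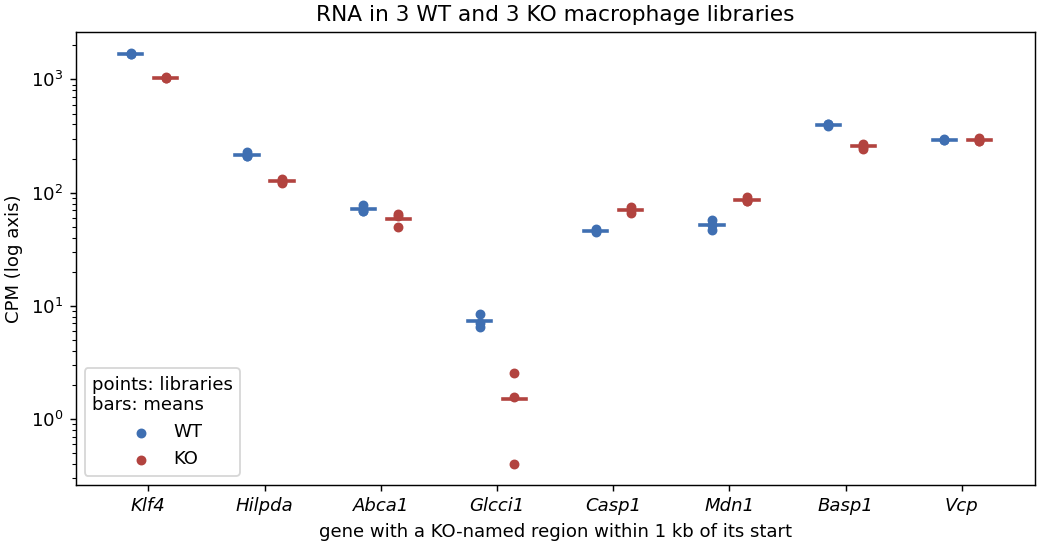
RNA in CPM (vertical axis, logarithmic) in each of 3 WT and 3 KO libraries for 8 genes with a KO-named region within 1 kb of the start; points are libraries and bars are means. Klf4, Hilpda, Abca1, Glcci1 and Basp1 are lower in KO, Casp1 and Mdn1 are higher, and the Vcp libraries overlap.

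Inside the stretches, 17 clusters held 67 of the 356 KO-named regions. Over all members, clusters held 4087 of 12708 (32.2%), so members were less often in clusters in the stretches. Gm13833, a predicted gene, had the most within 50 kb of its start, with 13 KO-named and 5 WT-named regions, at the edge of the chr6 stretch. Its RNA was near 0 (0.66, 0.26 and 0 CPM in WT, 1.11, 1.27 and 1.12 in KO, edgeR adjusted p = 0.0586), and counts without strand cannot be told apart from those of overlapping genes. Pnrc1, a nuclear receptor coregulator gene, had 10 KO-named and 2 WT-named regions within 50 kb. At the gene start used for these counts, Pnrc1 had 0 KO-named and 2 WT-named regions within 1 kb. A cluster of 7 KO-named regions and no WT-named one lay at chr4:33242414-33265523. It included 1 that covers 63 of the 250 bases before another, RefSeq start of Pnrc1. Pnrc1 RNA was at 439.7, 436.3 and 422.2 CPM in WT and 282.5, 281.5 and 274.1 in KO (log2 fold change -0.63, SE 0.0323, edgeR adjusted p = 3.258e-27), with no overlap.

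A cluster at chr4:43957316-43982679 began at the start of Glipr2 and held 7 KO-named and 2 WT-named regions. Clta, the clathrin light chain gene next to it, had 8 KO-named regions within 50 kb and was at 383.5 ± 7.20 CPM in WT and 366.4 ± 7.56 in KO (edgeR adjusted p = 0.0848). Around 43 Mb of the same chromosome, Fancg, Fam214b, Stoml2, Vcp and Pigo share their neighbourhood and had 7 or 8 KO-named and 5 WT-named regions within 50 kb each. Vcp, the segregase of protein quality control, had 2 KO-named regions within 1 kb and stood at 295.5, 290.2 and 292.3 CPM in WT and 286.1, 301.7 and 283.8 in KO, which overlap (log2 fold change -0.01, SE 0.0355, edgeR adjusted p = 0.813). In this neighbourhood Fam214b fell, while Fancg (edgeR adjusted p = 0.181) and Pigo (0.294) were not called. Stoml2 was called higher in KO by edgeR with all libraries (log2 fold change 0.26, adjusted p = 0.0405), although its WT and KO libraries overlapped. The DESeq2 Wald test did not call it (0.0659). On the same chromosome, edgeR with all libraries called Trim14 lower in KO (log2 fold change -0.37, adjusted p = 0.0224). Stoml2 lost its call without WT replicate 1, WT replicate 2, KO replicate 1 or KO replicate 3 (adjusted p from 0.0852 to 0.23), and Trim14 without WT replicate 2, KO replicate 1 or KO replicate 2 (0.0578 to 0.114).

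Smaller clusters of 4 KO-named regions lay at B4galt1, Coro2a, Lyn, Glcci1 and Abca1, genes named after the clusters had been seen. The B4galt1 cluster also held 5 WT-named regions and the Lyn cluster 1, while those at Coro2a, Glcci1 and Abca1 held 0. B4galt1, a galactosyltransferase gene, went from 117.0 ± 10.3 to 98.2 ± 4.44 CPM (edgeR adjusted p = 0.0004077). Lyn, a Src family kinase of myeloid signalling, was at 404.5 ± 13.9 and 417.5 ± 10.3 CPM, and Coro2a at 117.2 ± 3.54 and 122.2 ± 2.53, neither of them called (adjusted p = 0.242 and 0.4227).

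Few genes of macrophage pathways could be placed. Of 20 macrophage identity factors, Klf4, Tfec and Irf5 lie in the stretches, and Klf4 alone of them had a KO-named region within 1 kb. Tfec, a macrophage factor of the MiT family, fell from 24.2 ± 1.56 to 17.9 ± 0.973 CPM (edgeR adjusted p = 0.004002), and Irf5, a factor of inflammatory activation, rose from 331.4 ± 6.34 to 421.0 ± 1.09 CPM (6.474e-15). Of 16 complement and efferocytosis genes Abca1 was the only one in a stretch. Mmp12, macrophage elastase, was the only 1 of 26 alternative activation genes, with no KO-named region at its start and 1848 ± 11.1 CPM in WT against 837.3 ± 18.5 in KO (1.681e-52). The interferon list had Ddx58 and the lysosome list Atp6v0d2, neither called nor with a region within 1 kb. No gene of the lists for EGR factors, O-GlcNAc and hexosamine genes, AP-1 factors, chemokines, class I or class II presentation, cholesterol synthesis or glycolysis lies in the stretches. Among marker lists of other cells, Pax5, Mmp8 and Col1a2 lie there, none with a KO-named region at its start.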

How the data were processed

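The deposited ATAC and EGR2 lists give a score per region on regions of 501 bp, which the authors pooled into 1 ATAC list and 1 EGR2 list per genotype. Neither the peak caller nor the merging is named in a label or header. The authors deposited raw counts per gene made with featureCounts 2.0.6 on GENCODE M10 (mm10) without strand, per the file headers. Of 48440 gene identifiers, 48058 had a symbol, matched without the version suffix.

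Members were found by name, and distances run between region centres. Counts were tested with edgeR 4.0.16 in R 4.3.3 (quasi-likelihood F-test, 2-sided, filterByExpr, TMM, 3 against 3 libraries), with Benjamini-Hochberg adjustment over all tested genes and calls at 0.05. DESeq2 1.42.0 was an alternative. Distances, overlaps and exact (Clopper-Pearson) 95% intervals used Python 3.11.15, numpy 2.4.6, pandas 2.3.3 and scipy 1.17.1. The scripts were tested on simulated data.

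The plan assumed mm10 coordinates for the whole list; since they hold in 5 stretches, all gene-based results were computed there and no coordinate was converted. The members, gene lists and tests were chosen with earlier results of these data known. Named regions are the 10 highest and 5 lowest scores and the 5 largest clusters; another cluster, on chr9, was named after its scores had been seen. Named genes are the 8 largest rises and 8 largest falls among called genes with a KO-named region within 1 kb, at least 1 log2 CPM and no overlap between genotypes, the 10 genes with most KO-named regions within 50 kb, and called list members; 1 of them is not reported here. Single-cell RNA, ChIP and histone data were not used here.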

Additional observations from a re-analysis of the deposited data

How the results depend on the processing

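The share of KO-named regions within 1 kb of a gene start in the stretches (37.9%) became 52.2% within 5 kb and 49.2% for scores above the median. The share in clusters (32.2%) became 18.9% with a gap of 5 kb, 46.5% with 25 kb and 16.2% for scores above the median. The share with an EGR2 peak (7.48%) became 4.34% with at least 250 bp shared, 10.89% for ATAC scores above the median and 5.29% for EGR2 peaks above their median score. The number of genes called (4874) was 4869 with DESeq2 size factors, 4403 with the DESeq2 Wald test and 4792 without the filter on low counts, and 3991 to 4587 without 1 library. Among genes with a KO-named region at the start (51 called) these values were 51, 43 and 45, and 37 to 48 without 1 library. Libraries with the same replicate number did not deviate together (correlations -0.00484, 0.00188 and 0.0112), so no sign of pairing by number was seen. Such correlations cannot show whether libraries shared a day or a batch. With a replicate block, 4691 genes were called, and 46 of those with a KO-named region at the start. No call among the 51 changed sign under any of these settings. Limits are that only 2.8% of the members could be set against genes, and that ATAC and EGR2 lists have no replicate values.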
